A study of Mus musculus with 10 samples.

Results

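The beta-defensin genes (Defb) were described across 10 expression arrays of mouse epididymal white adipose tissue, the visceral fat pad that lies against the epididymis. Members were all genes whose probe sets carried exactly 1 symbol made of Defb and a number in the platform annotation, each read from its brightest probe set by mean over the 10 arrays. This gave 20 genes from 21 probe sets, of 18193 genes named on the array. Male C57BL/6J mice, 8 weeks old at the start, received for 8 weeks either a high-fat diet with 60% fat (HFD, 5 mice) or normal chow CRF-1 (chow, 5 mice). Total RNA of each mouse's frozen fat pad was hybridised to 1 Affymetrix mouse expression array, and the labels name no transgene, deletion or drug in either group. Each array is labelled as 1 mouse, and the p-values therefore rest on differences among mice.

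Beta-defensins are small cationic peptides, held in shape by disulfide bonds between conserved cysteines, that epithelia secrete onto their surfaces. They disrupt microbial membranes, and some also attract leukocytes through the chemokine receptors Ccr6 and Ccr2 or act on Toll-like receptors. In rodents many members are made by the epithelium of the epididymis, where they coat maturing sperm, and different segments of the duct express different members. RefSeq lists 43 beta-defensin genes in the mouse, among them the pseudogene Defb44-ps on chromosome 1, in clusters on 4 chromosomes. Of these the array named 1 of 3 on chromosome 1, 4 of 11 on chromosome 2, 14 of 24 on chromosome 8 and 1 of 5 on chromosome 14.

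Levels are log2 intensities after quantile normalization, with the lowest intensities raised to a floor of 0.658. That floor lies at -0.60 on the normalized scale, and the median of all probe sets lies at 4.49. Changes are HFD minus chow with the standard error (SE) from limma, and adjusted p-values are Benjamini-Hochberg values over all 18193 genes, called at 0.05. Levels are not compared between genes, since each probe set has its own sensitivity.

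The arrays of the chow group differed among themselves, and chow arrays 1 and 2 stood apart. The adipocyte list (6 of 8 genes measured) had a mean log2 level of 11.78 to 12.13 on HFD arrays and 10.36 to 12.45 on chow arrays, lowest on chow array 2. Adipoq, the adipokine adiponectin, lay between 12.10 and 13.24 on all 10 arrays, so the labelled tissue was present in each. The epididymal epithelium list (16 of 23 measured) averaged 3.74 to 5.96 on HFD arrays and 6.50 to 12.49 on chow arrays. Chow array 2 was the highest, and chow array 1 was the lowest chow array. The actin control's 5' to 3' signal ratio, a measure of RNA integrity, was 0.557 to 0.643 on HFD arrays and 0.272 to 0.456 on chow arrays. The part of the actin ratio and of the adipocyte level in the results was not tested, and a fit with the epididymal list mean is given with the family's counts. In bulk tissue, fewer cells of a type, less RNA per cell and a different share of adjoining tissue cannot be told apart.

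Across the family, 10 of 20 genes fell on the HFD (limma, adjusted p under 0.05) and 0 rose, beside 13.1% of all genes called lower and 12.9% called higher. At an unadjusted 0.05, 13 of the 20 were lower and 0 higher, beside 3647 lower and 3243 higher of all 18193 genes. The median change of the 20 genes was -3.53 on the log2 scale, against -0.04 for all genes. The genes that fell were Defb1, Defb2, Defb9, Defb10, Defb11 and Defb15 on chromosome 8, Defb29, Defb21 and Defb19 on chromosome 2, and Defb42 on chromosome 14, with changes of -3.20 to -6.74. In 6 of the 20 genes, each among those that fell, all HFD arrays lay below all chow arrays, beside 11.0% of all genes lower without overlap. With chow array 1 left out 11 genes fell, beside 12.9% of all genes. With chow arrays 1 and 2 left out 11 fell, beside 19.8%, and with chow arrays 1, 2 and 3 left out, a setting added after seeing the data, 11 fell, beside 17.4%. On the log2(intensity + 16) scale, which shrinks changes of dim genes, 7 fell, beside 12.3%. With the epididymal list mean, which holds no beta-defensin, as a covariate, 1 of the 20 fell, Defb42, beside 1.51% of all genes. That mean was higher on every chow array than on every HFD array, so the fit only partly parts it from diet. In it Defb1, Defb2, Defb9 and Defb11 lost their calls but stayed lower by 3.95 to 5.29 with wider SEs. Defb10, Defb29 and Defb13 shrank to -0.94, -0.57 and -0.19, while other members turned positive. The list mean on chow array 1 was 6.50, near the 5.96 of HFD array 1, whereas Defb1, Defb2, Defb9, Defb11 and Defb42 were high on chow array 1. The covariate could therefore not take up their level on that array, and what stayed lower does not measure a fall beyond epididymal content.

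**Figure D1:**
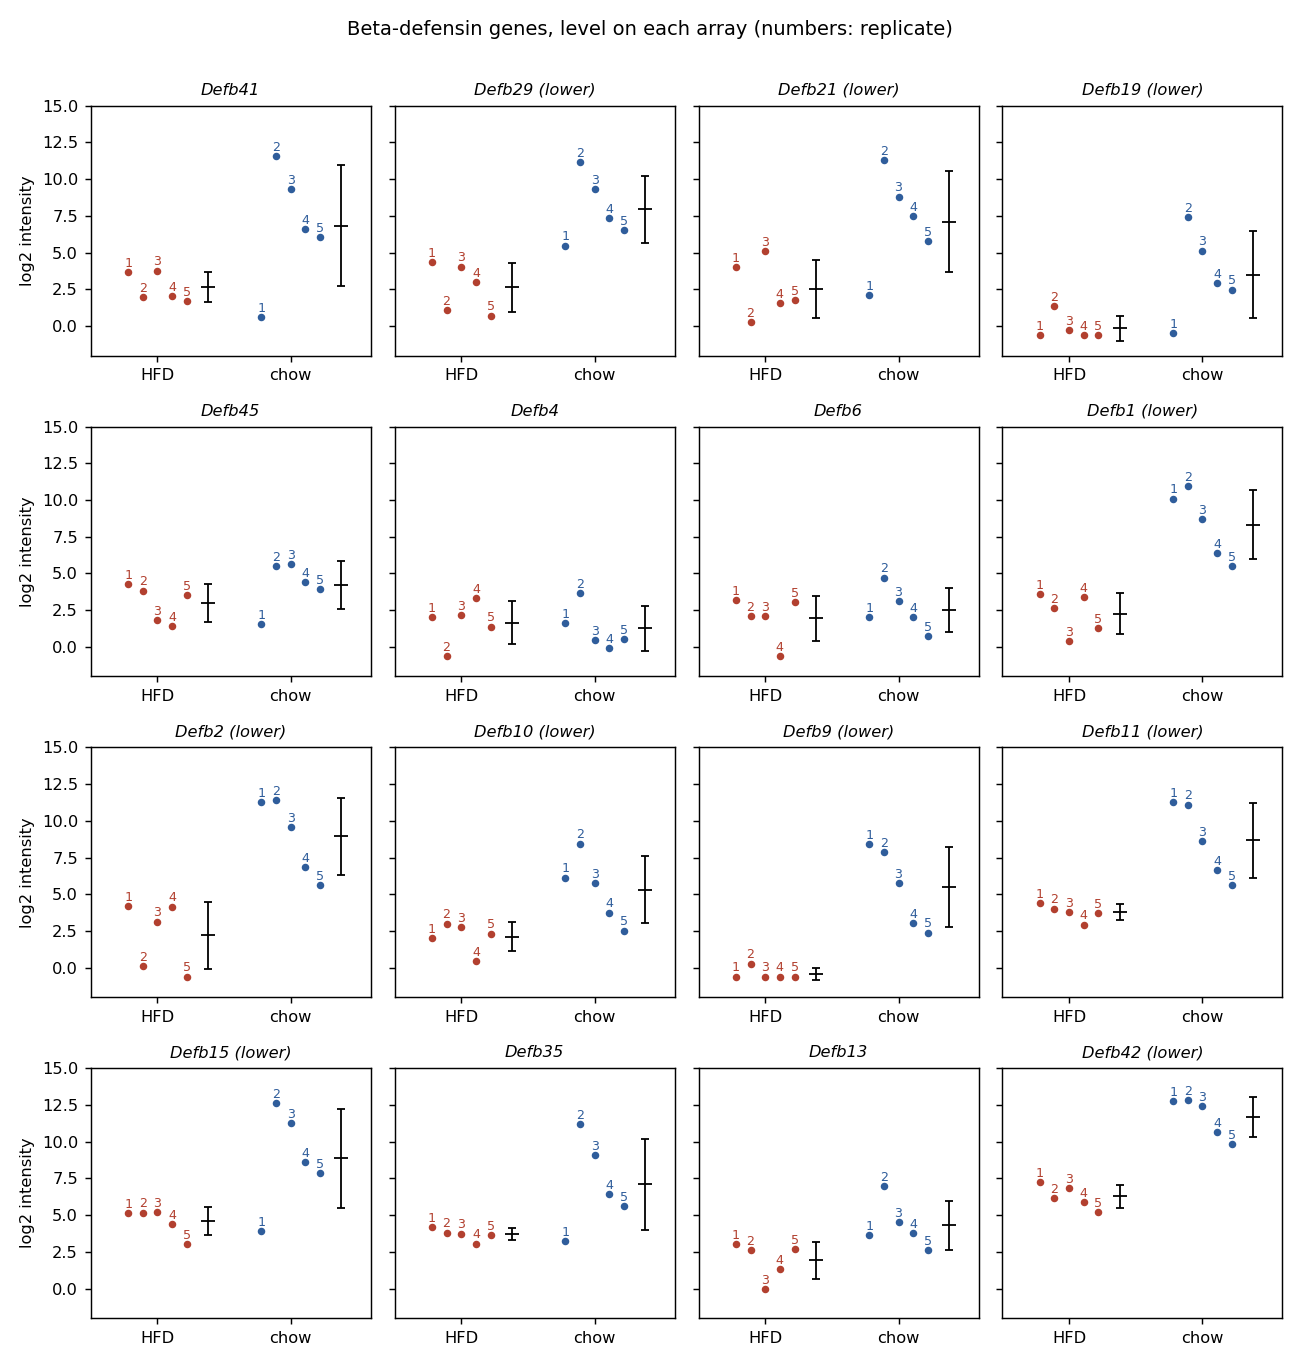
Log2 intensity of the 16 beta-defensin genes described with values, 1 panel a gene in chromosome order, HFD arrays in red and chow arrays in blue with their replicate numbers. Black bars give the mean and SD of 5 arrays, and "lower" marks the genes that fell; chow array 2 is the highest array in most panels, while chow array 1 is near it in some and among the HFD arrays in others.

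Defb42, an epididymal member and the gene measured on chromosome 14, had the smallest adjusted p. It measured 7.25, 6.16, 6.81, 5.87 and 5.23 on HFD arrays 1 to 5, against 12.73, 12.83, 12.42, 10.62 and 9.84 on chow arrays 1 to 5. The groups did not overlap, and chow arrays 1, 2 and 3 were close together above chow arrays 4 and 5. Defb42 fell by 5.43 (SE 0.61, limma adjusted p = 0.000129; 2-sided exact permutation p = 0.00794, the smallest that 5 against 5 arrays allow). In deposited intensities it spanned 37.7 to 164 on HFD arrays and 725 to 7652 on chow arrays. A dim probe set that names Defb42 together with another gene averaged 0.66 on HFD and 2.89 on chow arrays. Its change of -2.23 (SE 0.99) did not pass (limma adjusted p = 0.1535 over all probe sets), and chow array 5 lay below HFD arrays 3, 4 and 5.

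On chromosome 8, Defb1 and Defb2 lie next to each other among the genes measured. Defb1 is the constitutively expressed beta-defensin 1 of kidney, airway and other epithelia, the counterpart of human DEFB1. It measured 3.61, 2.66, 0.38, 3.38 and 1.26 on HFD arrays 1 to 5, against 10.10, 10.93, 8.72, 6.36 and 5.49 on chow arrays 1 to 5. Every chow array was above every HFD array, with chow arrays 1 and 2 the highest. Defb1 fell by 6.06 (SE 1.06, limma adjusted p = 0.00199), and its second probe set fell by 5.01 (SE 0.94, adjusted p = 0.00379 over all probe sets).

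Defb2, a beta-defensin that bacterial lipopolysaccharide induces in mouse airways, showed the largest change of the family on the floored scale, while Defb42 did on the log2(intensity + 16) scale (-4.47 for Defb2 and -5.14 for Defb42). It measured 4.17, 0.13, 3.14, 4.16 and -0.60 on HFD arrays 1 to 5, against 11.26, 11.41, 9.54, 6.87 and 5.61 on chow arrays 1 to 5. The groups did not overlap, and chow arrays 1 and 2 were again alike. Defb2 fell by 6.74 (SE 1.34, limma adjusted p = 0.00411).

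Defb10, Defb9 and Defb11 follow Defb2 on the chromosome. Their upstream sequences are shown because they resemble one another, and that of the neighbour Defb15, which differed from them on chow array 1, does not. Each is the 250 bases before the gene's start, 5′ to 3′ on the gene's strand, from RefSeq on GRCm38.p6: Defb9 at chr8:21885435-21885684 (minus strand), Defb10 at chr8:21858651-21858900 (plus), Defb11 at chr8:21906433-21906682 (minus) and Defb15 at chr8:21932711-21932960 (minus). Capitals mark runs of at least 12 bases shared by Defb9, Defb10 and Defb11, 72 bases in each, and in Defb15 they mark the motif matches given further on.
Defb9: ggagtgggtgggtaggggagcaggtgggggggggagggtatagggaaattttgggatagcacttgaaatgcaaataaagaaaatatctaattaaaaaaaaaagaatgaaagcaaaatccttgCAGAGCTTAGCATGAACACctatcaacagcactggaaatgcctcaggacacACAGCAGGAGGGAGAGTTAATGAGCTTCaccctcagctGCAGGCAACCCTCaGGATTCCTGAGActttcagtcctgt
Defb10: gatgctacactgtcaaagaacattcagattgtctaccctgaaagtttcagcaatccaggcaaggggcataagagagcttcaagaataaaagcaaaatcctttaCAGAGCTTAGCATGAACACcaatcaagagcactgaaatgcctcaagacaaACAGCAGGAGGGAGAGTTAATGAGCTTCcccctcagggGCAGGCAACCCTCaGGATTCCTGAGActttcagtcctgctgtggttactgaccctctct
Defb11: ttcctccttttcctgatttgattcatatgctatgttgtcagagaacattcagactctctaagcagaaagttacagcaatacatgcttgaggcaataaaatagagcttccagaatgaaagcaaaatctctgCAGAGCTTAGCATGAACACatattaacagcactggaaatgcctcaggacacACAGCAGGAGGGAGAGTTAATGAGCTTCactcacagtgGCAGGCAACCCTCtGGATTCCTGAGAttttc
Defb15: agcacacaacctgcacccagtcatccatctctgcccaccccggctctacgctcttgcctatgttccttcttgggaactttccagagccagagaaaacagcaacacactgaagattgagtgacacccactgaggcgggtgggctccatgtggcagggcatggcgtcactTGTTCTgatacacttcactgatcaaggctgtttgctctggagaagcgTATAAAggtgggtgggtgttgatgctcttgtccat
The longest shared run has 28 bases, and 3 of 32851 gene-start windows in the RefSeq table held it. Defb15 held 0 bases of the shared runs.

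Defb9 measured -0.60, 0.28, -0.60, -0.60 and -0.60 on HFD arrays 1 to 5, against 8.44, 7.87, 5.78, 3.05 and 2.40 on chow arrays 1 to 5. The HFD arrays other than array 2 were at the floor, and every chow array was above it. Defb9 fell by 5.93 (SE 1.10, limma adjusted p = 0.00276), a size that depends on the floor: on the log2(intensity + 16) scale the change was -2.28 (adjusted p = 0.0434).

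Defb11 was read from a probe set whose suffix marks probes that may bind other transcripts. It measured 4.39, 4.03, 3.76, 2.94 and 3.75 on HFD arrays 1 to 5, against 11.26, 11.10, 8.64, 6.64 and 5.65 on chow arrays 1 to 5. HFD arrays were alike and below every chow array, and chow arrays 1 and 2 were the highest. Defb11 fell by 4.88 (SE 1.0, limma adjusted p = 0.00496).

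Defb10 measured 2.03, 3.0, 2.75, 0.47 and 2.33 on HFD arrays 1 to 5, against 6.13, 8.45, 5.74, 3.75 and 2.53 on chow arrays 1 to 5. The groups overlapped, since chow array 5 lay below HFD arrays 2 and 3. Defb10 fell by 3.20 (SE 0.98, limma adjusted p = 0.0342) but not on the log2(intensity + 16) scale, where the change was -1.69 (adjusted p = 0.073), and its call was kept in 11 of 23 alternatives.

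Defb15, Defb35 and Defb13 come next in the order of the chromosome, and chow array 1 did not follow chow array 2 in them. Defb15, an epididymal member, measured 5.16, 5.17, 5.19, 4.41 and 3.0 on HFD arrays 1 to 5, against 3.93, 12.65, 11.23, 8.58 and 7.85 on chow arrays 1 to 5. Chow array 1 lay among the HFD arrays and the other chow arrays above them all. Defb15 fell by 4.26 (SE 1.35, limma adjusted p = 0.0387), and by 3.71 on the log2(intensity + 16) scale (adjusted p = 0.0417). Its call was lost without any 1 of the HFD arrays (adjusted p = 0.0632 to 0.0913) and without chow array 2 (0.0569), 3 (0.0916) or 4 (0.0607), and it was kept in 13 of 24 alternatives.

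Defb35 measured 4.18, 3.81, 3.74, 3.06 and 3.65 on HFD arrays 1 to 5, against 3.21, 11.18, 9.07, 6.43 and 5.59 on chow arrays 1 to 5. Here too chow array 1 was among the HFD arrays. The change of -3.41 (SE 1.21) did not pass the test (limma adjusted p = 0.0601) and passed it without chow array 1. Defb13 measured 3.03, 2.59, -0.01, 1.33 and 2.68 on HFD arrays 1 to 5, against 3.61, 6.98, 4.52, 3.78 and 2.60 on chow arrays 1 to 5. Its change of -2.37 (SE 0.84) did not pass either (limma adjusted p = 0.0591).

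The remaining 6 genes of chromosome 8, Defb4, Defb6, Defb5, Defb3, Defb8 and Defb7, lie together before Defb1 and showed low signal in both groups. Defb4, known from mouse airway, tongue and oesophagus, measured 2.04, -0.60, 2.18, 3.31 and 1.39 on HFD arrays 1 to 5, against 1.64, 3.70, 0.49, -0.09 and 0.55 on chow arrays 1 to 5. Its difference of 0.41 (SE 0.86, limma adjusted p = 0.773) was smaller than the spread within either group. Defb6, described in mouse skeletal muscle, measured 3.21, 2.09, 2.08, -0.60 and 3.03 on HFD arrays 1 to 5, against 2.01, 4.72, 3.11, 2.01 and 0.73 on chow arrays 1 to 5, with a difference of -0.55 (SE 0.87, limma adjusted p = 0.688). For the other 4 genes the changes ran from -0.75 to 0.24 with limma adjusted p-values of 0.62 to 0.876, on deposited intensities of 0.194 to 12.5. Levels this close to the floor do not show whether the transcripts were present.

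**Figure D2:**
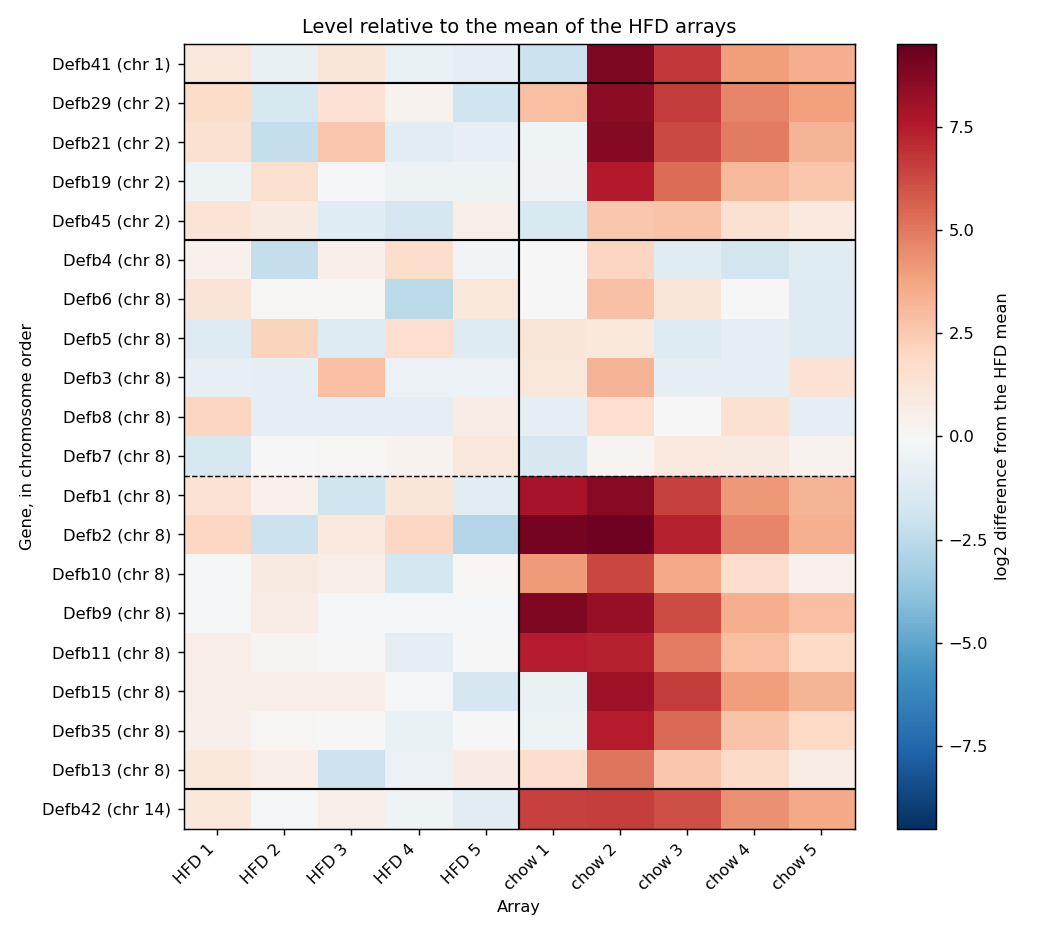
Log2 level of each of the 20 beta-defensin genes on each array, minus that gene's mean over the HFD arrays, with genes in chromosome order (solid lines part the chromosomes) and HFD arrays on the left. Below the dashed line on chromosome 8, Defb1 to Defb11 are high on both chow arrays 1 and 2, and Defb15, Defb35 and Defb13 are high on chow array 2 with little or no excess on chow array 1.

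On chromosome 2, 3 of the 4 genes measured fell. Defb29, which has been studied as an attractant of dendritic cell precursors in mouse tumours, measured 4.37, 1.12, 4.06, 3.0 and 0.73 on HFD arrays 1 to 5, against 5.49, 11.18, 9.33, 7.33 and 6.53 on chow arrays 1 to 5. The groups did not overlap, and chow array 1 was the lowest chow array. Defb29 fell by 5.32 (SE 1.10, limma adjusted p = 0.00501).

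Defb21 measured 3.99, 0.26, 5.13, 1.58 and 1.80 on HFD arrays 1 to 5, against 2.13, 11.31, 8.82, 7.5 and 5.78 on chow arrays 1 to 5. Chow array 1 lay below HFD arrays 1 and 3, and the other chow arrays lay above all HFD arrays. Defb21 fell by 4.55 (SE 1.53, limma adjusted p = 0.0496), just inside the threshold, and the call was lost on the log2(intensity + 16) scale (-3.0, adjusted p = 0.0621) and kept in 8 of 24 alternatives.

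Defb19, first described in the developing mouse testis, measured -0.60, 1.38, -0.27, -0.60 and -0.60 on HFD arrays 1 to 5, against -0.45, 7.41, 5.14, 2.94 and 2.49 on chow arrays 1 to 5. Chow array 1 was near the floor with the HFD arrays. Defb19 fell by 3.64 (SE 1.22, limma adjusted p = 0.049), and the call was lost on the log2(intensity + 16) scale (-1.18, adjusted p = 0.147) and kept in 8 of 23 alternatives. Defb45 measured 4.29, 3.84, 1.82, 1.40 and 3.52 on HFD arrays 1 to 5, against 1.56, 5.51, 5.66, 4.39 and 3.91 on chow arrays 1 to 5. Its groups overlapped, and the change of -1.23 (SE 0.84) did not pass (limma adjusted p = 0.32).

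Defb41, a member of the initial segment of the mouse epididymis and the gene measured on chromosome 1, had the widest gap between chow arrays. It measured 3.71, 1.96, 3.79, 2.04 and 1.73 on HFD arrays 1 to 5, against 0.62, 11.55, 9.35, 6.58 and 6.08 on chow arrays 1 to 5. Chow array 1 was the lowest of all 10 arrays and chow array 2 the highest, with a difference of -10.93 for array 1 minus array 2. The change of -4.19 (SE 1.64) did not pass the test (limma adjusted p = 0.0844), and it passed without chow array 1.

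**Figure D3:**
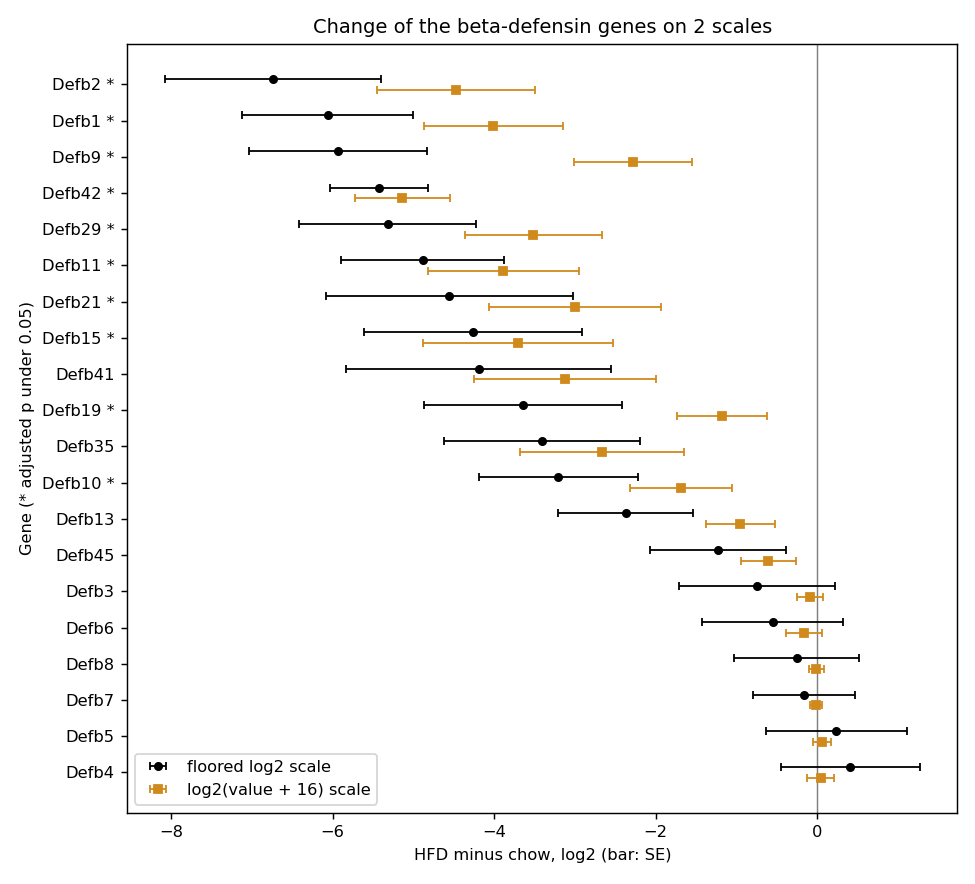
Change of each beta-defensin gene, HFD minus chow on the log2 scale with its SE (bars), on the floored log2 scale (black circles) and on the log2(intensity + 16) scale (orange squares), ordered by size. An asterisk marks the 10 genes that fell; Defb42 moved little between the scales (-5.43 and -5.14), while Defb9, with HFD arrays at the floor, moved most (-5.93 and -2.28).

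The chow arrays kept a common order in most of the family. In 14 of the 20 genes (70%) the levels of chow arrays 2, 3, 4 and 5 descended in that sequence, against 12.5% of all genes, and chow array 2 was the highest of all 10 arrays in 14 (70%), against 24.5% of all genes. Chow array 1 was the highest in Defb9 and Defb11. Within the 10 genes that fell, chow array 3 exceeded chow array 4 by 1.32 to 2.73, and chow array 2 exceeded chow array 5 by 2.99 to 5.92. In 11 of the 20 genes every HFD array was below each of chow arrays 2 to 5, beside 12.8% of all genes.

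Chow array 1 exceeded the highest HFD array by more than 3 in 6 of the 20 genes, Defb1, Defb2, Defb9, Defb10, Defb11 and Defb42, beside 2.24% of all genes. Chow array 2 did so in 13, beside 3.52%. In 12 of the 20 chow array 1 was not above all HFD arrays, a share near the 65.8% of all genes, and these include all 6 low-signal genes from Defb3 to Defb8. The others are Defb15, Defb35, Defb21, Defb19, Defb41 and Defb45. In Defb15, Defb35, Defb21, Defb19 and Defb41 chow array 2 exceeded the HFD mean by 7.49 to 8.91.

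Of the 16 measured genes of the epididymal epithelium list 9 fell, and all 16 were higher on chow array 2 than on every HFD array. On chow array 1, 9 of the 16 were not above all HFD arrays, also no more than the share of all genes. Serpina1f, a serpin of the epididymis, measured 3.53 to 6.05 on HFD arrays, against 13.20 on chow array 1 and 12.43 on chow array 2, and fell by 6.13 (limma adjusted p = 0.000509). Crisp4 and Ceacam10, also high on chow array 1, fell by 6.69 and 6.43 (limma adjusted p = 0.00103 and 0.000818). Lcn9, an epididymal lipocalin, measured 4.99 to 7.13 on HFD arrays, against 1.13 on chow array 1 and 13.23 on chow array 2, and its change of -3.37 did not pass (limma adjusted p = 0.226). Cst11, Cst12, Adam28, Lcn8, Rnase10 and Gpx5 also had chow array 1 below every HFD array. The genes named here beside Serpina1f, Crisp4 and Ceacam10 were picked after their values were seen.

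**Figure D4:**
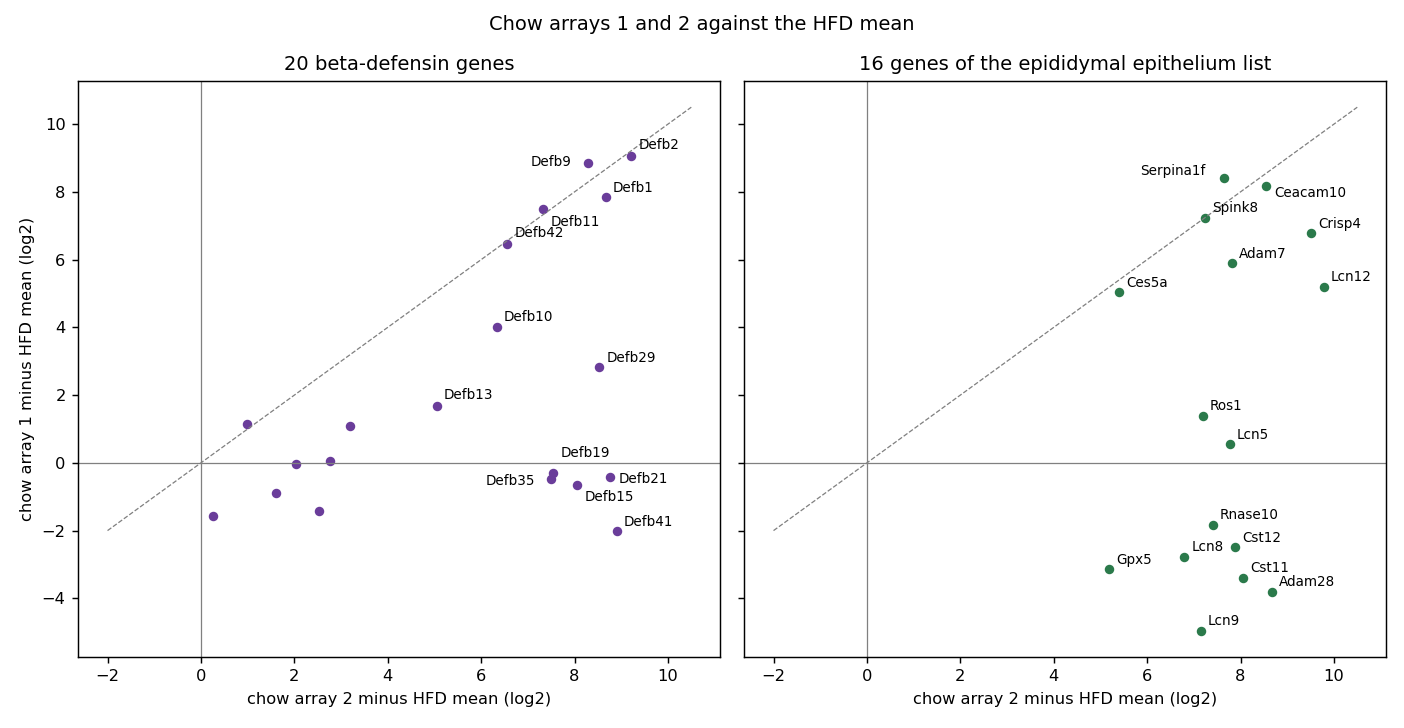
Level on chow array 1 (vertical) against chow array 2 (horizontal), each minus the gene's mean over the 5 HFD arrays on the log2 scale, for the 20 beta-defensin genes (left) and 16 epididymal epithelium genes (right); each point is 1 gene and the dashed line marks equal excess on both arrays. In both panels some genes lie near the dashed line and others at or below 0 on the vertical axis at a similar chow array 2 excess.

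Other lists gave the levels of cell types that a fat pad sample may hold. All 12 general epithelial markers fell, among them Cldn7 (-7.82), Esrp1 (-6.08) and Cdh1 (-5.69), and their mean level was 3.60 to 4.43 on HFD arrays and 6.28 to 10.18 on chow arrays. Testis and sperm markers fell in 4 of 10 genes (Tnp2 -4.76, Odf1 -3.33, Smcp -3.16), with means of 2.77 to 4.48 on HFD arrays and 4.29 to 9.41 on chow arrays. Seminal vesicle markers fell in 4 of 7 genes (Svs4 -6.12, Svs2 -5.87, Pate4 -4.81), with means of 2.17 to 3.52 on HFD arrays and 4.82 to 8.31 on chow arrays, highest on chow array 1. Smooth muscle markers fell in 7 of 7 genes, with Cnn1 at -6.50, Actg2 at -4.60 and Myh11 at -3.60, and with means of 5.94 to 6.98 on HFD arrays and 8.49 to 11.83 on chow arrays, again highest on chow array 1. None of the markers in these lists was at the floor on all HFD arrays, though some were on single ones, such as Svs4 on 3 and Esrp1 on 2. Without detection calls, a level above the floor does not show that a transcript was present.

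Macrophage markers rose in 7 of 8 genes, with Cd68 at 5.17, Tyrobp at 4.32 and Adgre1 at 4.19, and their mean was 10.13 to 10.81 on HFD arrays and 6.79 to 7.81 on chow arrays. Neutrophil markers rose in 2 of 8 genes (S100a8 4.83, Elane 1.40) and fell in 1, Ltf, at -4.27. Mesothelial markers fell in 1 of 5 genes, Upk1b at -2.25, while Upk3b differed by -0.88 (limma adjusted p = 0.278). No adipocyte marker (0 of 6) and no endothelial marker (0 of 5) passed limma's test, nor did any at an unadjusted 0.05: Adipoq differed by 0.22, Cidec by 0.45, Pecam1 by -0.23 and Kdr by -0.75.

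Genes of defensin biology outside the family were compared next. Of 17 other antimicrobial peptide and protein genes measured, 5 rose and 3 fell. S100a8, a calprotectin subunit, and Ltf, lactoferrin, moved in opposite directions as given above, and Wfdc15b, of the whey acidic protein family, fell by 5.86 (limma adjusted p = 0.000569). The median change of these genes was 0.13, against -3.53 for the beta-defensins. Of 6 reported receptors of beta-defensins 4 rose: Tlr1 by 3.26, Ccr2 by 2.67, Tlr2 by 1.84 and Tlr4 by 1.68. Ccr6 differed by -0.12 (limma adjusted p = 0.781). Of 5 measured genes of androgen signalling and epididymal regulation, Foxa1, a pioneer transcription factor of endodermal and reproductive epithelia, fell by 4.03 (limma adjusted p = 0.00196), and Etv4 differed by -2.28 (adjusted p = 0.143). The beta-defensin-like genes Spag11a and Spag11b were not named by a probe set here.

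The 250-base windows before the starts were compared for the 15 members that the RefSeq promoter table holds. Defb21 has 2 starts, so these members gave 16 windows. High identity was seen in 2 sets of genes. Defb9, Defb10 and Defb11, all lower on the HFD, matched one another at 72.4 to 84.6% of aligned bases (3 pairs). Defb3, Defb5, Defb6, Defb7 and Defb8, all of low signal in both groups, matched at 72.6 to 89.4% (10 pairs). The other 92 pairs matched at 45.1 to 61.9%. Whether these genes also share array probes was not tested.

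The motif TATAAA (reverse complement TTTATA, either strand) occurred in 2 of 16 member windows, those of Defb7 and Defb15, against 12.4% of all 32851 windows. AGAACA (reverse complement TGTTCT), the hexamer that the androgen receptor and related steroid receptors bind, occurred in 6 of 16, those of Defb41, Defb3, Defb8, Defb10, Defb11 and Defb15, against 16.1% of all windows. Of these 6 windows, those of Defb3 and Defb8 were 89.4% identical and those of Defb10 and Defb11 84.6%, so the matches are not independent. Genes with and without a fall were among those holding each motif. A match is a stretch of letters and no measured binding site.

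**Figure D5:**
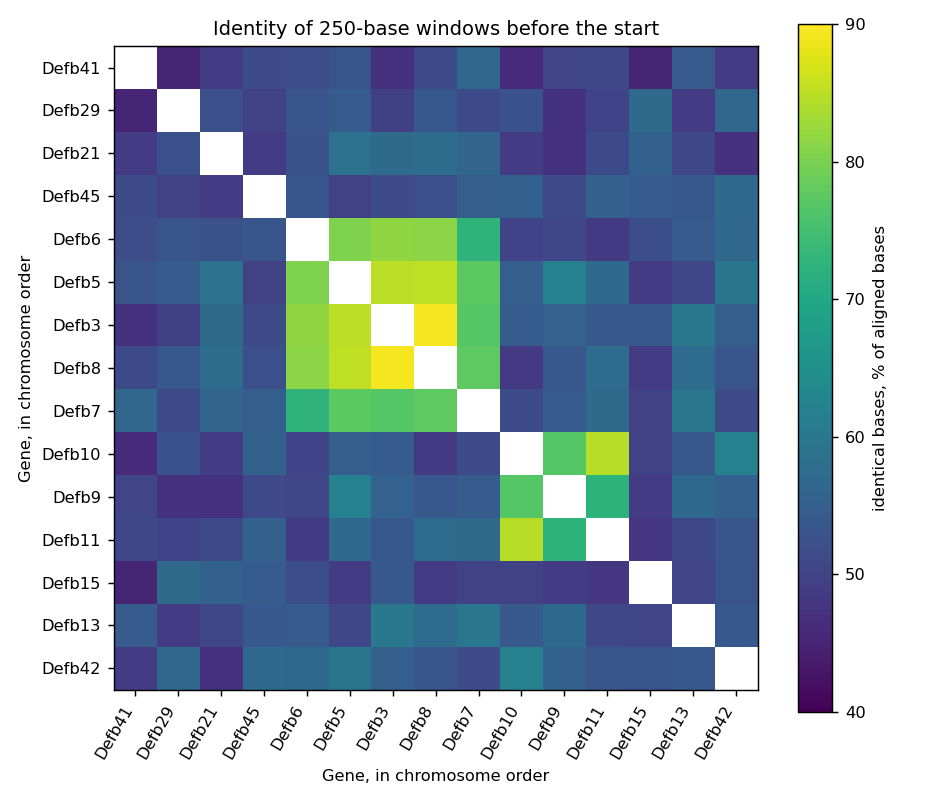
Percent of identical bases in global alignments of the 250 bases before the start, for each pair of the 15 members with a window, genes in chromosome order on both axes and colour from 40 to 90%. The 2 bright blocks are Defb6 to Defb7 and Defb10 to Defb11.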

How the data were processed

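Gene expression was measured on 10 single-colour arrays, 5 of HFD and 5 of chow mice. The deposited table gives 1 linear intensity per probe set. How the authors summarised and scaled these intensities is not given in the sources used here, and no detection calls were used. Per the labels' protocols, the total RNA of each animal was copied into biotin-labelled cRNA. Of 45101 probe sets, 34958 had exactly 1 symbol in the platform annotation, 932 several and 9211 were not listed; 64 controls were left out. Array medians ran from 17.9 to 27.4.

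Intensities were raised to a floor at their 5th percentile, log2 transformed and quantile normalized, since array medians differed by 0.613 on the log2 scale. Each gene was read from its brightest probe set and tested with limma 3.58.1 in R 4.3.3 (lmFit, eBayes with trend). A probe set naming Defb42 together with another gene was left out by the member rule. Promoter windows were aligned with Biopython 1.88. All 10 genes past the threshold and the 6 brightest others are described with values; of each list, up to 3 genes past the threshold with the largest changes, filled to 2 by the smallest p. Members, lists and tests were chosen with earlier results of these data known, so they give no independent support. Alternatives were other scalings, floors, filters, variance priors and probe-set choices, array weights, the replicate number as a block, the epididymal list mean as a covariate, and arrays left out. Replicate numbers did not pair the arrays (correlations of deviations from -0.02 to 0.006). In simulated data of this comparison over 18193 genes, 44% of 100 falls of 1 on the log2 scale were recovered. Of 100 falls of 4, 97% were recovered. The fit, which held both sets, gave 26 false calls beside 44 and 97 true ones. That is a larger share of the calls than the threshold of 0.05 aims at. These rates need not hold for the beta-defensin genes, since several of them varied widely among chow arrays. Defb41, with a change of -4.19 and a chow SD of 4.12, did not pass (limma adjusted p = 0.0844). Defb15 (-4.26, chow SD 3.37) and Defb21 (-4.55, chow SD 3.44) passed at limma adjusted p = 0.0387 and 0.0496.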

Additional observations from a re-analysis of the deposited data

Results flagged for a closer look

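Of 40 sets of 5 arrays (20 genes in each diet group), 4 held an array far from its group. By chance the rule flags about 1 in 20 sets of normal values without ties. Values tied at the floor do not meet this, so the count cannot be set against that rate. Defb19 measured 1.38 on HFD array 2, where the next HFD array had -0.27. Defb9 measured 0.28 on HFD array 2, and the other HFD arrays were at the floor of -0.60. Defb3 measured 3.17 on HFD array 3, where the next HFD array had -0.21. Defb7 measured -0.60 on chow array 1, and the next chow array had 1.21. All 4 levels lie below the median of all probe sets (4.49), and their causes were not tested.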

How the results depend on the processing

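The number of beta-defensin genes that fell was 10 as reported, beside 13.1% of all genes called lower. On intensities as deposited it was 12 (beside 8.20%), and after centring on array medians it was 11 (7.92%). It was 7 on the log2(intensity + 16) scale (12.3%), 6 with the floor at the 20th percentile (12.9%) and 9 with the replicate block (10.2%). Leaving out 1 array gave 6 to 11, beside 9.86 to 15.6% of all genes. It was 6 without HFD arrays 1, 2, 4 or 5 or chow array 3, and 7 without HFD array 3 or chow arrays 2 or 4. Without chow array 5 it was 9, and without chow array 1 it was 11. Defb1, Defb2, Defb9, Defb11, Defb29 and Defb42 kept their calls in each of these fits. With the epididymal list mean as a covariate, chosen with earlier results known, 1 beta-defensin gene fell, Defb42 (adjusted p = 0.0475), and 867 genes of the whole array passed (275 lower, 592 higher) against 4717. In that fit Defb9 (-5.29, SE 2.01), Defb2 (-4.64, SE 2.33), Defb1 (-4.57, SE 1.86) and Defb11 (-3.95, SE 1.81) stayed negative without passing the test. Their SEs in the reported fit were 1.10, 1.34, 1.06 and 1.0. They and Defb42 were high on chow array 1, where the list mean was low, so the covariate could not take up their level there. Defb10 (-0.94), Defb29 (-0.57) and Defb13 (-0.19) also stayed negative without passing. The changes of Defb41 (3.27), Defb21 (2.06), Defb35 (2.06), Defb15 (1.93), Defb6 (1.81), Defb45 (1.55) and Defb19 (1.37) turned positive without passing the test. Defb6 was also positive when chow arrays 1 and 2 (0.0113) or chow arrays 1, 2 and 3 (0.59) were left out, and leaving out 1 array gave -0.9999 to 0.0873, positive without HFD array 4. Defb4 was negative with the floor at the 20th percentile (-0.0292), and leaving out 1 array gave -0.0046 to 1.02, negative without HFD array 4. The cause of these changes was not tested. Centring on array medians moved the median of all genes to 0.21, against -0.04 in the reported fit, and the split of called genes to 1440 lower and 4420 higher, against 2379 and 2338; as deposited it was 1491 lower and 2745 higher. The beta-defensin calls were lower under each of these scalings. Over all the alternatives, the share of all genes called lower ran from 1.51% with the covariate to 19.8% without chow arrays 1 and 2. Signal near the floor limits Defb3, Defb4, Defb5, Defb6, Defb7 and Defb8.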
